A study of Mus musculus with 6 samples.

Results

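The mitochondrial chromosome of E14 cells, an established line of mouse embryonic stem cells, held 2155 cytosines listed for 5-formylcytosine (5fC) and 118 listed for 5-hydroxymethylcytosine (5hmC). These were all rows on the mitochondrial chromosome of the 2 deposited site tables, out of 6248342 listed 5fC cytosines and 20807956 listed 5hmC cytosines in all. The rule used the chromosome name and no read number. The 2155 5fC sites held 52769 reads, 0.0516% of all 5fC reads, and the 118 5hmC sites held 1144 reads, 0.000433% of all 5hmC reads.

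5hmC and 5fC are successive oxidation products of 5-methylcytosine, made in the nucleus by the TET enzymes. Mitochondrial DNA is a small circular genome present in many copies per cell, with genes on both strands and 1 main control region, a non-coding stretch that holds the promoters and the start of heavy-strand replication. The strands differ in base composition: the light strand, which the reference sequence follows by convention, is richer in cytosine, and the heavy strand is richer in guanine. In the supplied GRCm38.p6 annotation, which is of another build than the tables and was used for names and order alone, the 37 mitochondrial genes run from TrnF, mt-Rnr1 and mt-Rnr2 (the ribosomal RNAs) through ND1, ND2, COX1, COX2, ATP8, ATP6, COX3, ND3, ND4L, ND4, ND5, ND6 and CYTB to TrnT and TrnP.

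The libraries came from untreated cells grown on gelatin in medium with serum and LIF, a cytokine that keeps the cells undifferentiated. The labels give 2 technical replicates of 5fC and 2 of 5hmC from a culture at passage 14, and 2 of 5hmC from another culture at passage 12. In the assay, Pvu-Seal-seq, DNA is cut beside modified cytosines by the enzyme PvuRts1I, and fragments tagged with azide-glucose are captured. How 5fC was separated from 5hmC is not stated. Each table gives 1 read count per listed cytosine for its libraries together, with at least 2 reads at every site, so the values below carry no replicate error and marks, strands and regions could not be tested against each other. The 5hmC table is marked as that of the first culture, but the descriptions of the passage 12 samples name it too. Whether the passage 12 culture contributes to it is not stated. Intervals are 95% intervals that cover counting error only, since reads without molecular identifiers and neighbouring sites are not independent. Positions are in mm9 and counted from 1. The actual bases around the sites are not shown, because no mm9 mitochondrial sequence was used here.

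Along the chromosome the outstanding feature was an empty stretch. No 5fC site was listed from position 6408 to 11024, 4617 bases or 28.4% of the length up to the last listed base at 16270. No 5hmC site lay there either. The next longest stretch without a 5fC site was 232 bases, from 15674 to 15905 inside the control region, and the median distance between neighbouring listed positions was 3 bases. As a result 9 of the 33 bins of 500 bases, from 6501 to 11000, were empty for both marks.

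Nuclear chromosomes carry copies of mitochondrial DNA. The GRCm38.p6 annotation lists 1 nuclear pseudogene with a mitochondrial gene name among its synonyms, Gm10925 on chromosome 1 with the synonym mt-Atp6. How reads that match more than 1 place were treated is not stated, and the part of nuclear copies in the empty stretch was not tested. An empty stretch in these lists is therefore not shown to lack either mark. Densities below are given with and without it.

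**Figure D1:**
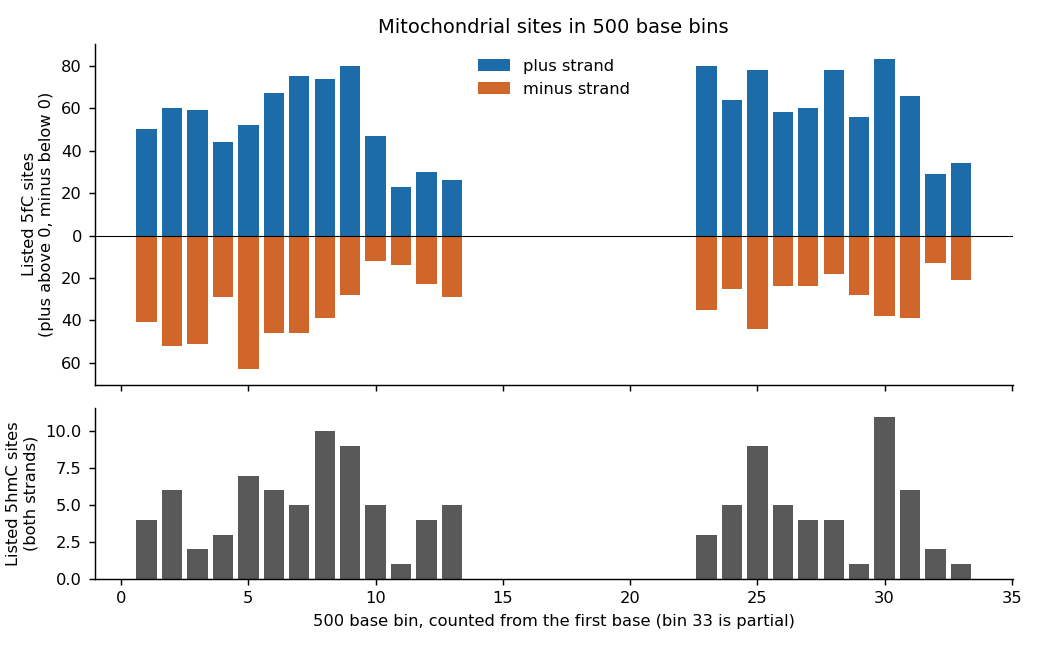
Listed mitochondrial sites in bins of 500 bases counted from the first base; the upper panel shows 5fC sites on the plus strand above 0 and on the minus strand below 0, the lower panel 5hmC sites on both strands. The 9 empty bins are the same for both marks, and outside them 5fC plus-strand sites run from 23 to 83 per whole bin.

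Outside the empty stretch 5fC sites were spread over the whole chromosome, at 18.5 per 100 bases. In the 21 whole bins clear of it the number of 5fC sites ran from 37 to 122, with a median of 96. The most sites lay in the bin from 12001 to 12500, with 122, followed by the bins from 3001 to 3500 and from 14501 to 15000, with 121 each. The fewest lay from 5001 to 5500, with 37, from 15501 to 16000, with 42, and from 5501 to 6000, with 53. The bin with the most sites held 3.30 times the sites of the lowest that had any (interval 2.27 to 4.90). The interval of this ratio takes no account of both bins being picked by their counts. This ratio depended on the bins and strand: it was 10.7 with bins of 250 bases, 5.67 with bins shifted by 250 bases and 5.25 on the minus strand. Low bins lay in 2 places. The bin from 15501 to 16000 contains the 232 base empty stretch, and from 4501 to 6000 the 3 bins held 59, 37 and 53 sites, against 108 to 121 in each of the 5 bins from 2001 to 4500. How many cytosines each bin holds was not counted here, so these differences can include differences in base composition.

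Reads per site changed much less than the number of sites. The median number of 5fC reads per site in the 21 bins ran from 18 to 27. In the sparse bin from 5001 to 5500 it was 21, and in the densest bin it was 20. Summed 5fC reads per bin ran from 840, in that sparse bin, to 3435 from 4001 to 4500. The bin medians over both strands were therefore similar. Single sites varied more, with quartiles of 13 and 32 reads over the whole chromosome and a highest value of 385.

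**Figure D2:**
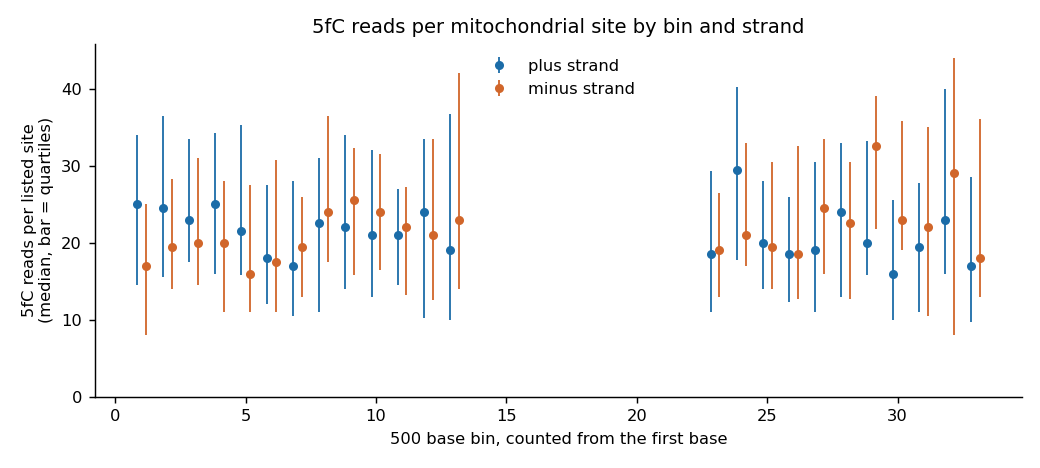
Median 5fC reads per listed site in each 500 base bin with sites, for the plus and the minus strand; bars run from the lower to the upper quartile of sites. Medians lie between 16 and 32.5 reads in the whole bins clear of the empty stretch, and the quartile bars of the strands overlap in each bin.

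The control region, taken from 15423 to the last listed base, had 111 5fC sites, or 13.1 per 100 bases, and the coding part had 2044, or 13.3 per 100 bases, a ratio of 0.988 (interval 0.808 to 1.20). Without the empty stretch the coding part had 18.9 sites per 100 bases and the ratio was 0.692 (0.566 to 0.838). The control region has its own empty stretch of 232 bases. On either side of that stretch it had 19.9 sites per 100 bases, from 15423 to 15673, and 16.7 per 100 bases, from 15906 to 16270. With the longest empty stretch of each region left out, the control region had 18.0 sites per 100 bases and the ratio to the coding part was 0.953. Both stretches were chosen because they held no site, so 0.953 describes the remaining bases only. The lower ratio of 0.692 keeps the empty stretch of the control region.

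Reads per site in the control region were close to those in the coding part. The median was 22 reads (interval 18 to 27) in the control region and 21 (20 to 21) in the coding part, and the means were 26.4 and 24.4 reads. The deepest control-region site had 90 reads, against 385 in the coding part. CG sites made up 5 of 111 control-region sites, 4.50% (1.94 to 10.1%), and 250 of 2044 coding sites, 12.2% (10.9 to 13.7%). How many CG cytosines each region holds was not counted, so this difference can include base composition. CA was the most frequent dinucleotide of the control region, at 58 sites, followed by CT with 35 and CC with 13. The plus strand held 72 of the control-region sites, 64.9% (55.6 to 73.1%), and 63.6% (61.5 to 65.7%) of coding sites.

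The plus strand carried more 5fC sites than the minus strand, 1373 against 782, or 63.7% of all (interval 61.7 to 65.7%). On the nuclear chromosomes 49.996% of 5fC sites were on the plus strand. The excess was larger in the second part of the chromosome. Plus sites were 687 of 1160, 59.2% (56.4 to 62.0%), before the empty stretch and 614 of 884, 69.5% (66.3 to 72.4%), between it and the control region. Plus sites outnumbered minus sites in 20 of the 21 whole bins clear of the empty stretch. The exception was the bin from 2001 to 2500, with 52 plus and 63 minus sites, and the highest plus share was 81.3%, from 13501 to 14000.

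The strand excess lay outside CG. Since CG reads the same on both strands, each strand holds equally many. Of the mitochondrial CG sites 123 were on the plus and 132 on the minus strand, 48.2% plus (42.2 to 54.3%). Of the non-CG sites 1250 were plus and 650 minus, 65.8% plus (63.6 to 67.9%). CA sites contributed most, with 611 plus and 188 minus, followed by CT with 485 and 306. CC sites were even, with 154 plus and 156 minus. The number of cytosines available on each strand was not counted here, so unequal base composition and unequal listing cannot be told apart.

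The even CC numbers need the nuclear values beside them. In the nuclear 5fC list only 26.1% of CC sites were on the plus strand, while CA was 56.5% and CT 55.3% plus, so the tables themselves are not balanced between strands within a dinucleotide outside CG. The mitochondrial plus shares of 76.5% for CA, 61.3% for CT and 49.7% for CC each lay above their nuclear counterparts. Nuclear CG sites were 50.0% plus.

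**Figure D3:**
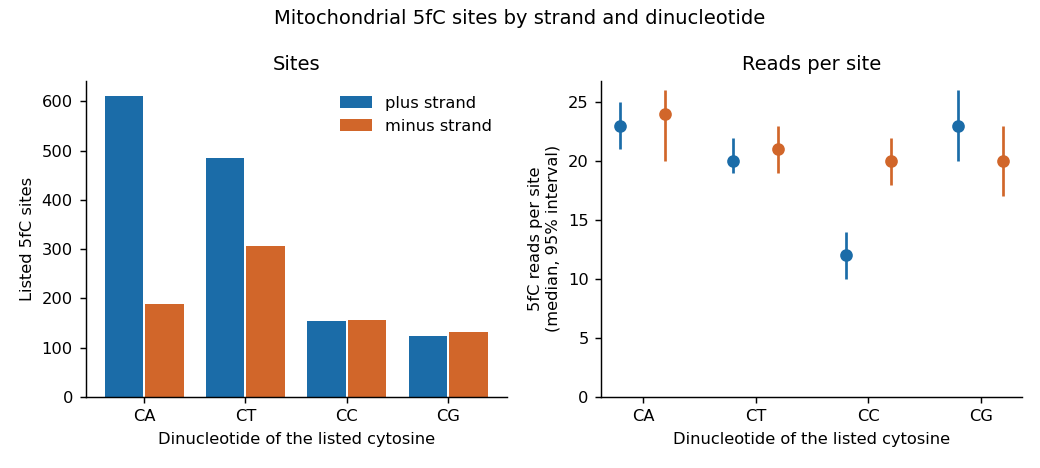
Mitochondrial 5fC sites by dinucleotide for the plus and the minus strand: number of listed sites (left) and median 5fC reads per site with its 95% interval (right). CA and CT sites are more numerous on the plus strand, and CC sites on the plus strand have the fewest reads, with a median of 12.

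Over the whole chromosome reads per site hardly differed between the strands or dinucleotides, with 1 exception. The median was 20 reads on the plus strand (interval 20 to 21) and 21 on the minus strand (20 to 22), and the means were 23.9 and 25.5 reads. CA sites had medians of 23 plus and 24 minus, CT 20 and 21, and CG 23 and 20 reads. Plus-strand CC sites stood below the others with a median of 12 reads (10 to 14), against 20 (18 to 22) for minus-strand CC sites. Of the plus-strand CC sites 104 of 154 were followed by another listed cytosine and had a median of 11 reads, and the other 50 had 14, so the low level was found in both. By position the strands did differ. The plus median was higher in 10 of the 21 whole bins clear of the empty stretch and the minus median in 10. Plus was higher in every bin from 1 to 3000, with 25 against 17 from 1 to 500. Minus was higher in every whole bin from 14001 to 16000, with 32.5 against 20 from 14001 to 14500.

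By dinucleotide the mitochondrial list was unlike the nuclear one. CG made up 11.8% of mitochondrial sites (interval 10.5 to 13.3%) and 75.2% of nuclear sites. The share was 8.96% on the plus strand (7.56 to 10.6%) and 16.9% on the minus strand (14.4 to 19.7%). In 3 whole bins, from 4501 to 5000, from 11501 to 12000 and from 15501 to 16000, no CG site was listed, and the most, 26, lay from 2001 to 2500. The share of CG among all cytosines was not counted here for either genome, strand or bin. Base composition and unequal listing therefore cannot be told apart in these CG shares. CG sites were no deeper than others: their median of 21 reads equalled that of the mitochondrial non-CG sites, whereas in the nucleus the medians were 13 reads at CG and 11 outside CG. Mitochondrial sites were also deeper as a whole. Their middle 50% ran from 13 to 32 reads with a median of 21, against 7 to 20 with a median of 12 in the nucleus, and 84.9% had at least 10 reads, against 63.7%. These raw counts are not divided by the number of genome copies per cell, which is high for mitochondrial DNA, so they are not levels per copy.

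In the 5fC list CG dyads were more often found on both strands on the mitochondrial chromosome than in the nucleus. The 255 mitochondrial CG sites formed 160 dyads, of which 95, 59.4% (interval 51.6 to 66.7%), were listed on both strands, against 20.3% of nuclear 5fC dyads. The minus cytosine was listed for 77.2% of dyads with a listed plus cytosine, and the plus cytosine for 72.0% of dyads with a listed minus cytosine. The difference was also there at like reads per site, but how densely each list covers its chromosomes was not matched. Of CG sites with 10 to 19 reads the other strand was listed for 66.2% of mitochondrial sites (55.1 to 75.8%) and 32.5% of nuclear sites. At 20 to 39 reads the shares were 78.4% (69.5 to 85.3%) and 40.2%. The mitochondrial list was dense, at 18.5 5fC sites per 100 bases outside the empty stretch. Dyads listed on both strands are plus and minus sites 1 base apart, and numbered 95. Over the 56 distances from 1 to 60 bases outside 20 to 23, such opposite-strand pairs ran from 72 to 118, with a median of 95. At 1 base only CG sites can pair, 123 plus and 132 minus. At the other distances any of the 1373 plus and 782 minus sites can. These pair numbers are therefore not like for like and give no background for the dyads. In the 95 dyads listed on both strands the medians were 23 reads on plus and 22 on minus, with plus deeper in 42 and minus in 53. In the 5hmC list the order was the other way, with 1 of 11 mitochondrial dyads on both strands, 9.09% (1.62 to 37.7%), against 39.6% of nuclear dyads.

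No small group of positions held most 5fC reads, but a few stood far above the rest. The deepest 5 held 2.75% of the mitochondrial 5fC reads. On the plus strand the deepest were position 4141, a CA site with 320 reads, 3985 (CA, 202 reads), 4629 (CA, 161 reads), 2499 (CT, 127 reads) and 4222 (CA, 98 reads). On the minus strand they were 13406 (CA, 385 reads), 4164 (CA, 330 reads), 4008 (CC, 215 reads), 5904 (CG, 164 reads) and 3534 (CT, 112 reads). Of these 10 positions 9 were also 5hmC sites, all but 4222.

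Several of the deepest positions faced each other across the strands at the distance that the enzyme prefers. PvuRts1I cuts best between a modified cytosine and a cytosine on the opposite strand a fixed distance away, and a distance of 20 to 23 bases was used here. Position 4141 on plus, with 320 5fC reads, faced 4164 on minus, with 330, at a distance of 23 bases. Position 3985 on plus, with 202, faced 4008 on minus, with 215, also at 23 bases. Position 4629 on plus, with 161, faced 4651 on minus, with 73, at 22 bases, and 2499, with 127, faced the CG site 2521, with 75, at 22 bases. The deepest site of all, 13406, had no listed partner at 20 to 23 bases, and the CG site 5904, with 164 reads, had a partner of 9 reads.

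By share of sites the spacing did not stand out over the whole 5fC list. A 5fC site on the opposite strand lay 20 to 23 bases downstream, read along the strand of the site, for 31.7% of mitochondrial 5fC sites (interval 29.8 to 33.7%). At 20 to 23 bases upstream, on the side away from the cut, the share was 34.7%. At 10 to 13 bases downstream it was 35.4% and at 30 to 33 bases 27.4%. Each class of sites up to 79 reads had between 30.3% and 32.6% at 20 to 23 bases downstream. Of the 16 sites with 80 or more reads 11 had such a partner, 68.8% (44.4 to 85.8%), but 11 of 16 also had 1 upstream. At 10 to 13 bases downstream 8 of 16 had 1, 50% (28.0 to 72.0%), and at 30 to 33 bases 3 of 16. Counted as pairs, deep sites were more frequent at 22 and 23 bases: pairs with at least 40 reads at both sites numbered 9 at 22 and 6 at 23 bases, but 2 at 20 and 0 at 21, against at most 5 at each of the 56 other distances up to 60 bases. The lower reads of all pairs summed to 2238 at 23 bases, against at most 2156 at those other distances. That sum includes the pair of 4141 and 4164, with lower reads of 320, and that of 3985 and 4008, with 202. At 20, 21 and 22 bases the sums were 1734, 1086 and 2094, each below 2156.

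The nuclear lists show the spacing clearly. Of nuclear 5fC sites 34.3% outside CG and 16.1% at CG had a partner 20 to 23 bases downstream, against 4.23% and 3.29% upstream. At 10 to 13 bases downstream, a distance used as background, nuclear shares were 3.77% and 2.60%, far below the mitochondrial 35.4%. Mitochondrial sites thus had listed neighbours at every distance, and distances were compared within each list.

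**Figure D4:**
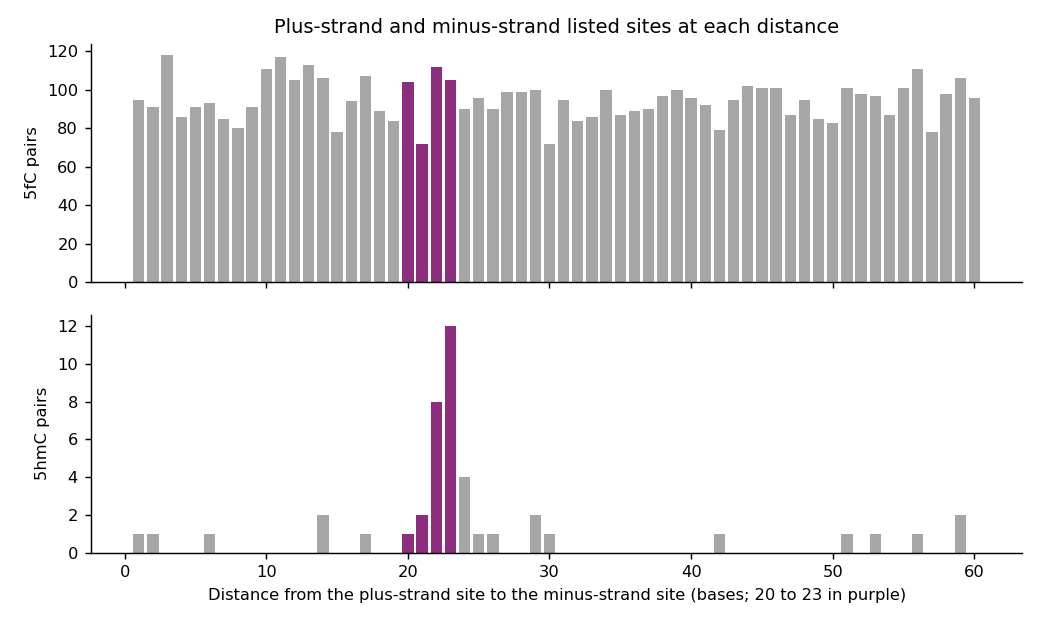
Pairs of a plus-strand and a minus-strand mitochondrial site by the distance in bases from the plus to the minus site, for 5fC (upper) and 5hmC (lower), with 20 to 23 bases in purple. The 5fC pairs number between 72 and 118 at every distance, while 5hmC pairs number 8 at 22 and 12 at 23 bases and at most 4 at any distance outside 20 to 23.

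The 5hmC list, in contrast, was marked by the spacing. Of the 118 mitochondrial 5hmC sites 44, or 37.3% (interval 29.1 to 46.3%), had a 5hmC site on the opposite strand 20 to 23 bases downstream. Upstream it was 2 of 118, at 10 to 13 bases downstream 0 of 118 (upper bound 3.15%) and at 30 to 33 bases 2 of 118. For nuclear 5hmC the shares were 55.4% outside CG and 20.5% at CG downstream, and 6.27% and 4.41% upstream. The 23 mitochondrial pairs lay in 12 of the bins, 20 of them at 22 or 23 bases, and 1 in the control region. CG was part of 5 pairs. With partners taken from the 5fC list, 77 of the 118 5hmC sites had 1 at 20 to 23 bases downstream, 65.3% (56.3 to 73.2%). Upstream the share was 42.4% (33.8 to 51.4%), at 10 to 13 bases downstream 21.2% and at 30 to 33 bases 29.7%. Around the 5hmC sites the spacing was thus seen in the 5fC list too.

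The deepest 5hmC pairs were those already seen for 5fC. Positions 4141 and 4164 had 55 and 88 5hmC reads, and 3985 and 4008 had 55 and 67. Next were 4629 and 4651 with 36 and 17 reads, then 14766 and 14787 with 22 and 14, a distance of 21 bases, and 3979 and 4002 with 13 and 14. The 44 paired sites held 60.1% of the mitochondrial 5hmC reads and had a median of 8.5 reads, against 4 at the 74 unpaired sites. In the 5fC list the paired sites had a median of 45 reads and the unpaired ones of 29.

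Mitochondrial 5hmC sites were few and mostly shallow. Their median was 6 reads, and 41.5% had 4 or fewer. Reads were concentrated: the deepest 10 positions held 41.1% of mitochondrial 5hmC reads, and over an equal share of sites the deepest 10% of positions held 25.3% of the 5fC reads and 44.1% of the 5hmC reads. The stretch from 3501 to 4500 held 6447 of the 52769 5fC reads, 12.2%, at 221 sites and 378 of the 1144 5hmC reads at 19 sites. Most of these 5hmC reads lay at positions 3985, 4008, 4141 and 4164, with 55, 67, 55 and 88 reads. All 21 whole bins clear of the empty stretch had at least 1 5hmC site, with a median of 5 and the most, 11, from 14501 to 15000. The control region held 5 sites with 34 reads and the coding part 113 sites with 1110 reads. By strand 71 were plus and 47 minus, 60.2% plus (interval 51.2 to 68.5%). CA made up 55 sites, CT 30, CC 21 and CG 12, so CG was 10.2% (5.91 to 16.9%), near its share in the mitochondrial 5fC list.

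Almost all mitochondrial 5hmC sites were 5fC sites on the same base and strand, 112 of 118 or 94.9% (interval 89.3 to 97.6%), against 22.9% of nuclear 5hmC sites. In the other direction 5.20% of mitochondrial 5fC sites (4.34 to 6.22%) were 5hmC sites, against 76.3% in the nucleus. The lengths of the lists limit these shares: at most 5.48% of mitochondrial 5fC sites and at most 30.0% of nuclear 5hmC sites could be shared. Of the shorter list, 94.9% was shared on the mitochondrial chromosome, where it was 5hmC, and 76.3% in the nucleus, where it was 5fC. The mitochondrial 5fC list was also dense, at 18.5 sites per 100 bases outside the empty stretch. What share of all mitochondrial cytosines it holds was not counted, so the overlap that density alone would give is not known. The share of mitochondrial 5fC sites was alike at CG, 12 of 255 or 4.71%, and outside CG, 100 of 1900 or 5.26%. It rose with 5fC reads, from 1.54% of sites with 2 to 9 reads to 4.34% at 20 to 39, 14.9% at 40 to 79 and 62.5% (10 of 16, interval 38.6 to 81.5%) at 80 or more. The shared sites had a median of 39 5fC reads (33 to 42), against 20 (20 to 21) at the 2043 5fC sites without 5hmC.

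Of the 6 5hmC sites absent from the 5fC list 5 had 3 or 4 reads. Position 2682 on minus, a CC site, had 10, which equals the upper quartile of mitochondrial 5hmC sites. Positions 204 on minus (CT) and 14544 on plus (CC) had 4 each, and 1059 (CA), 2803 (CC) and 14767 (CA) on plus had 3 each. For 3 of them the adjacent base on the same strand was a 5fC site: 2804, with 20 5fC reads, beside 2803, 14545, with 11, beside 14544, and 14766, with 69, beside 14767.

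**Figure D5:**
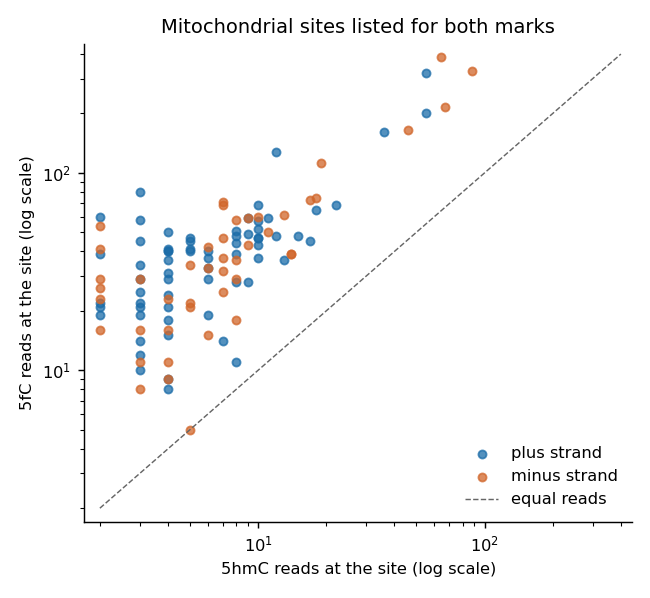
5fC reads against 5hmC reads, both on log scales, at the 112 mitochondrial cytosines listed for both marks; the dashed line marks equal reads. All but 1 site lie above the line, and the ratio of 5fC to 5hmC reads has a median of 5.47.

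At the shared sites 5fC reads exceeded 5hmC reads in 111 of 112 and equalled them in 1, with a median ratio of 5.47 and a range from 1 to 30.0. The read numbers of the marks had a Spearman correlation of 0.62 over these 112 sites, which come from 2 tables in which each site needs reads to be listed, so it is a description only. The summed ratio was 8.72 at sites with 2 to 4 5hmC reads, 5.34 at 5 to 9, 4.54 at 10 to 19 and 4.26 at 20 or more. These classes are set by the 5hmC reads that also divide the ratio. The grouping alone can therefore lower the ratio from class to class, and no trend is drawn from it. Over all mitochondrial sites 5fC had 46.1 times the reads of 5hmC and 18.3 times the sites. The read ratio was 75.2 without the 10 deepest positions and 69.7 with sites of at least 10 reads. On the nuclear chromosomes the ratios were 0.387 for reads and 0.300 for sites, and over the 21 nuclear chromosomes they ran from 0.262 to 0.576 and from 0.156 to 0.473. Most of the mitochondrial 5fC reads, 47032 of 52769, thus lay at cytosines not listed for 5hmC. No library without either mark was used here, so 5fC and background of the 5fC libraries cannot be told apart at these sites.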

How the data were processed

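Pvu-Seal-seq was run on genomic DNA of E14 cells in 6 libraries. The authors deposited 1 table for 5fC and 1 for 5hmC, each with a raw read count for every cytosine listed. The submitters' processing notes name Bowtie, cutadapt, CASAVA and bcl2fastq, and the build mm9, without versions. How libraries were pooled, how common sites were defined, how cut ends were assigned to cytosines and how 5fC was told from 5hmC are not stated in these sources. The 5hmC table carries the mark of the first culture and was treated as that of passage 14, although samples of the other culture name it too.

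Rows of the mitochondrial chromosome were taken from both tables. The control region was set to begin at 15423, and all lengths end at the last listed base. The items named were the 5 deepest 5fC positions per strand, the 5 deepest 5hmC positions, every 5hmC site without a 5fC site, and the 3 bins of 500 bases with the most and the 3 with the fewest 5fC sites. As 9 bins were empty, the fewest were taken among bins with sites. Members, bins and the distance of 20 to 23 bases were chosen with earlier results of these data known. Further positions and pairs were named after their values were seen. Shares have Wilson intervals, ratios of counts exact binomial ones and medians order-statistic ones. The tables do not give the sequencing depth: the 5fC table sums to 102305049 reads and the 5hmC table to 264008048. The functions passed 6 of 6 checks on simulated data. Python 3.11.15, numpy 2.4.6, pandas 2.3.3 and scipy 1.17.1 were used.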

Additional observations from a re-analysis of the deposited data

How the results depend on the processing

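No paired analysis was possible because each table holds 1 pooled count per site. For the same reason no library could be left out. Of 58 alternatives, 39 left the value inside its counting interval. The plus share of CG sites alone was 48.2%, just on the other side of 50% but with an interval of 42.2 to 54.3% that covers it, and non-CG sites gave 65.8%. The CG share was 8.96% on plus and 16.9% on minus. The density ratio of the control region to the coding part became 0.692 without the longest empty stretch, an alternative chosen after the data were seen, as were all that involve empty stretches or sites of at least 40 reads. The ratio of the highest to the lowest bin was 10.7 with 250 base bins, where the lowest overlaps the empty stretch of the control region, 5.67 with bins shifted by 250 bases, where the lowest bin is cut by the longest empty stretch, and 5.25 on the minus strand. With at least 5 reads 98.6% of 5hmC positions were shared. Reads of 5fC over those of 5hmC came to 53.1 with at least 5 reads, 69.7 with at least 10, 75.2 without the 10 deepest positions and 18.3 by sites. The share of 5fC sites with a partner 20 to 23 bases downstream was 27.9% with at least 10 reads, 25.3% for plus and 43.0% for minus sites (the same pairs over unequal numbers of sites), 34.5% for sites of at least 40 reads, and 35.4% and 27.4% at 10 to 13 and 30 to 33 bases. Other causes were not tested.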
